A study of Mus musculus with 104 samples.

Results

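The genes described here are 84 homeobox genes whose names start with Hox, Lhx, Nkx, Irx, Dlx, Pitx, Meis, Pou3f or Pou4f or are sine oculis homologs (Six3 to Six6 among them), taken by name from the array annotation; the rule leaves out 1 Lhx gene. They are 38 Hox, 7 Lhx genes, 6 sine oculis homologs, 11 Nkx, 6 Irx, 5 Dlx, 3 Pitx, 1 Meis, 4 Pou3f and 3 Pou4f genes, of 27962 gene names on the first array design and 30177 on the second. Each gene was followed by its brightest probe, and a level is the log2 intensity of that probe after quantile normalization over all arrays of a design, so levels are compared between samples and never between genes.

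Total RNA of dissected mouse brain tissue, each sample a biological replicate, was hybridised to single-colour Agilent whole-genome arrays. Scanner files were analysed for 96 arrays of 104 samples, which fall into 7 cohorts and 19 groups. On the first design, male BALB mice gave hypothalamus (7 young, 5 middle-aged and 6 aged arrays), tissue labelled cerebellum (5, 6 and 4) and tissue labelled striatum (3, 5 and 5), and male C57BL/6 mice gave hypothalamus (5 young, 5 aged) and cerebellum (4, 2 and 6). On the second design, male CBA mice gave hypothalamus (7, 5 and 8) and female BALB mice gave frontal cortex (4 young and 4 at 15 to 16 months). Young mice were 2 to 3 months old and middle-aged mice 12 to 13 months. Aged mice were 20 to 23 months old for BALB hypothalamus, 22 to 24 months for C57BL/6 hypothalamus and 21 to 23 months in the other male cohorts. The labels name no transgene and no treatment. The 75th percentile of spot intensity ran from 385.14 to 3678.9 over the arrays, and 56.127% to 91.422% of probes were well above background.

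Homeobox genes encode transcription factors that bind DNA through a homeodomain, and many of them set the identity of brain regions in the embryo and stay on in the adult neurons of the same region. Hox genes lie in clusters, and their order along a cluster follows the order of their expression domains from the hindbrain down the spinal cord, with paralog groups of low number in front; the midbrain and forebrain form without them. Dlx, Lhx6 and Lhx8 act in forebrain inhibitory and cholinergic neurons, Six3, Six6 and Nkx2-4 in the anterior and basal forebrain including the hypothalamus, and Lhx1, Lhx5 and Meis1 include genes of cerebellar Purkinje and granule neurons. Meis proteins are DNA-binding partners of Hox proteins.

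The proximal promoters of 2 genes that were high in the C57BL/6 cerebellum and 2 that were high in the hypothalamus are shown. They are examples out of 8 windows drawn up. Each is the 250 bases before the annotated start in RefSeq (build GRCm38.p6), read 5′ to 3′ on the gene's strand, and capitals mark matches to the motifs TGACAG (the Meis site), TGATTGAT (a joint Pbx and Hox site), TAATTA (a homeodomain core) or ATGCAAAT (the octamer of POU factors) on either strand. Hoxa2 (chr6:52164832-52165081, minus strand), Hoxa5 (chr6:52204588-52204837, minus strand), Dlx1 (chr2:71529195-71529444, plus strand) and Dlx2 (chr2:71546755-71547004, minus strand) read as follows.
Hoxa2: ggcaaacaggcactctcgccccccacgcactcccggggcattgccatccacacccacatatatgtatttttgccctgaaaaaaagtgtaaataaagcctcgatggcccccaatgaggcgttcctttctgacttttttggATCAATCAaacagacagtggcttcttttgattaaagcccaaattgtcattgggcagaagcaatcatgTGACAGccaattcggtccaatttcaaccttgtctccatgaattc
Hoxa5: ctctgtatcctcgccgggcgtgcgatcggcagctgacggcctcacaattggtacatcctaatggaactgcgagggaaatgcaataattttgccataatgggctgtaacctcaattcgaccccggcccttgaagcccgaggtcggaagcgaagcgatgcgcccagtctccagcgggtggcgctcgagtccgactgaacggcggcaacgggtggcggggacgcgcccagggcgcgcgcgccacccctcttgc
Dlx1: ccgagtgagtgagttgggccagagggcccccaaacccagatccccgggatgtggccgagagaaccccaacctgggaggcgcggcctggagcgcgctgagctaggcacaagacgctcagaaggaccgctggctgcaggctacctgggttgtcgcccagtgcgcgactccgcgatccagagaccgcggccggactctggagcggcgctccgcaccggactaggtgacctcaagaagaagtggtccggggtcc
Dlx2: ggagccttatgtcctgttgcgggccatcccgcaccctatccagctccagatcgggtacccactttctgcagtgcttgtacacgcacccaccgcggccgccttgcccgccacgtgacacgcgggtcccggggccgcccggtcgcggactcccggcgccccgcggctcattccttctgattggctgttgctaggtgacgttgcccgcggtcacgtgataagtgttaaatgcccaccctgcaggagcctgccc
The Hoxa2 window held TGACAG and, on the other strand, TGATTGAT, while the Hoxa5, Dlx1 and Dlx2 windows held none of the 4 motifs. Of the windows drawn up but not shown, that of Lhx1 also held TGACAG. CG dinucleotides numbered 6 in the Hoxa2 window, 28 in the Hoxa5 window, 22 in that of Dlx1 and 24 in that of Dlx2. A window was found for 53 of the 84 genes (60 windows). TGACAG was in 15% of these windows and in 15.9% of all 32851 windows of the table, TGATTGAT in 3.33% and 0.67%, TAATTA in 3.33% and 4.84%, and ATGCAAAT in 0% and 1.6%. No motif of the 4 contains another, and a match is only a match of letters.

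Before the comparisons, the tissue labels were set against genes that mark brain regions, as the log2 of their summed intensities. The 11 hypothalamic markers summed to 17.95 to 19.09 in the BALB and C57BL/6 hypothalami, with Otp well above background on no array of either, and to 11.55 to 13.78 in the C57BL/6 cerebellum. Cerebellar markers (11 genes) summed to 16.93 to 18.7 in the C57BL/6 cerebellum and 15.92 to 17.57 in the hypothalami. In the BALB tissue labelled cerebellum, the same sum was only 15.28 to 15.52 on the young arrays and 15.23 to 16.24 on the middle-aged ones, but 18.44 to 19.29 on the aged ones. In the tissue labelled striatum it was 18.63 to 19.25 on young, 18.39 to 19.24 on middle-aged and 15.38 to 19.3 on aged arrays. Striatal markers (11 genes) summed to 15.06 to 15.76 in the tissue labelled striatum, with Gpr6 on none of its young arrays, against 15.66 to 16.09 in the C57BL/6 cerebellum. Thalamic markers (8 genes) summed to 15.77 to 17.16 on the young and middle-aged arrays labelled cerebellum and to 14.37 to 14.94 on those labelled striatum. Hypothalamic markers summed to 14.54 to 15.45 on the young and 12.97 to 15.57 on the middle-aged arrays labelled cerebellum. On those labelled striatum they summed to 10.69 to 11.99 and 10.92 to 12.51. Cerebellar markers were thus low under the label cerebellum at 2 of 3 ages and high under the label striatum on 12 of 13 arrays. These values go against the labels, so the BALB libraries are called by their label only. Gabra6, a receptor subunit of cerebellar granule cells, set single BALB arrays apart from their groups: labelled cerebellum young 3 (7.44), middle-aged 2 (9.65) and middle-aged 5 (11.05) and labelled striatum aged 3 (4.82). It also set C57BL/6 hypothalamus aged 1 apart, at 12.78 against 1.62 to 2.39 on the other aged arrays of that cohort. Cbln3 (10.17) and Pcp2 (13.78), also cerebellar markers, were the highest of its group there. This array stayed in the main comparisons, and the part of cerebellar tissue in its values was not tested.

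**Figure D1:**
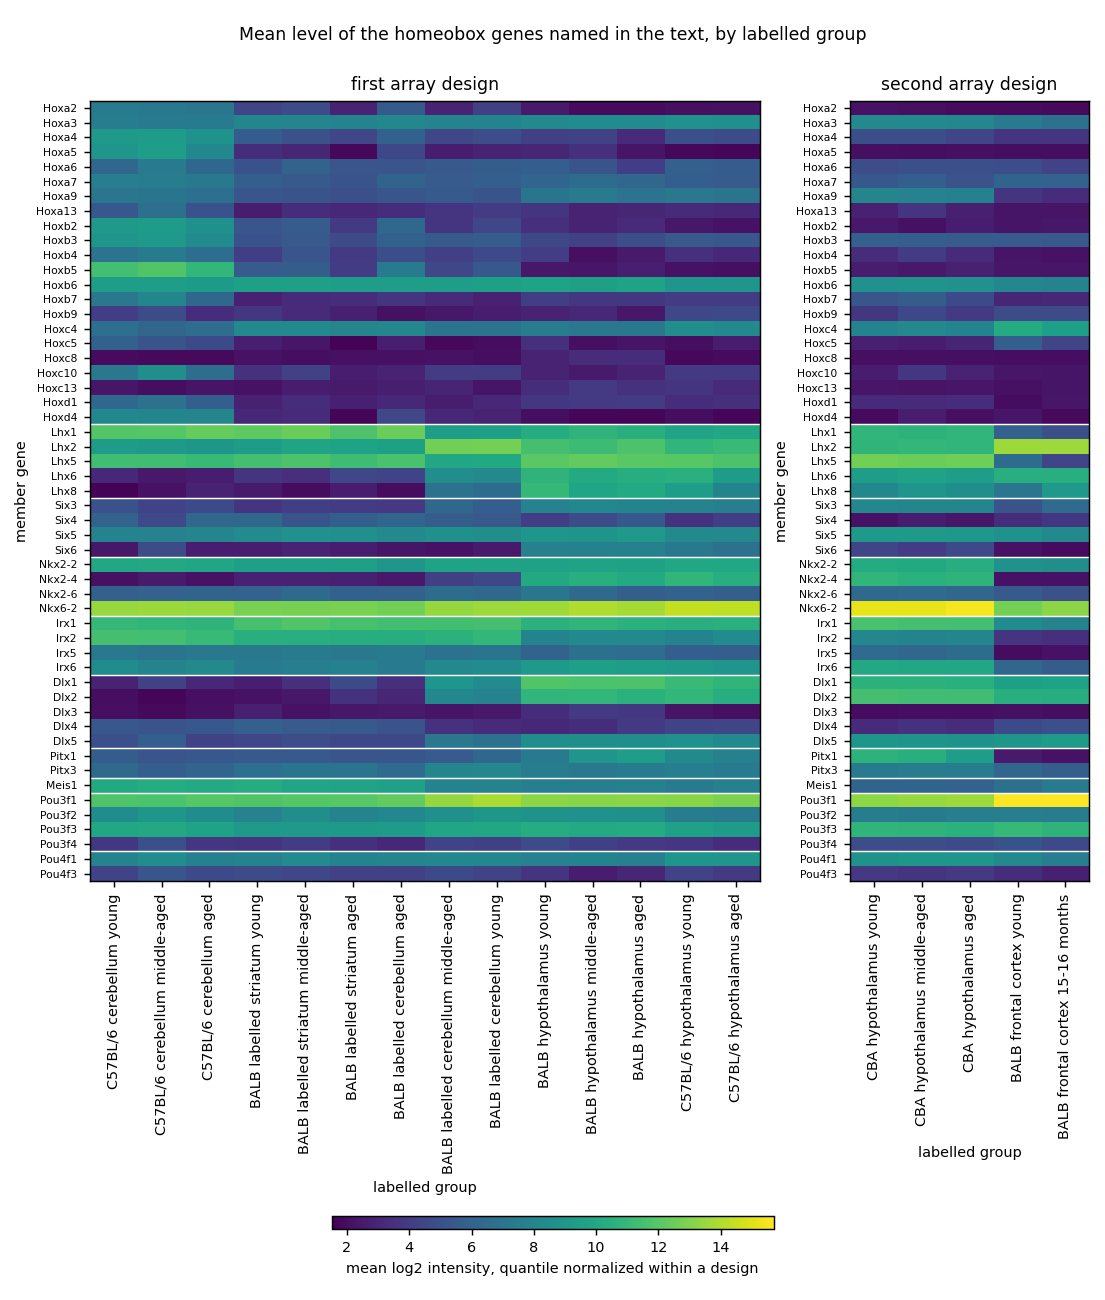
Mean log2 normalized intensity (colour) of 53 of the 84 homeobox genes, those named in the text (vertical axis, by family), in the 19 groups (horizontal axis, strain, labelled tissue and age). Hox genes of low paralog number are bright in the 3 C57BL/6 cerebellum groups, and Dlx1, Dlx2 and Nkx2-4 in the hypothalami.

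Across the cohorts, 14 of the 84 genes were well above background on every array: Hoxa3, Hoxb6, Hoxc4, Irx1, Irx6, Lhx2, Meis1, Nkx2-2, Nkx6-2, Pitx3, Pou3f1, Pou3f2, Pou4f1 and Six5. Dlx3 and Hoxc8 were well above background on none. The number on all arrays of a cohort was 49 in each of the C57BL/6 cohorts and 30 to 32 in the other 5. The share of all probes well above background also differed between cohorts, with a median of 83.2585% in C57BL/6 cerebellum and 62.4855% in CBA hypothalamus. It was 79.424% and 77.355% under the BALB labels cerebellum and striatum. The number of arrays was 10 and 12 in the C57BL/6 cohorts and 8 to 20 in the others. The part of either in these counts was not tested.

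Nkx6-2, a factor of oligodendrocytes, and Pou3f1, a POU factor of cortical projection neurons and of myelinating Schwann cells, were among these. Nkx6-2 ranged from 12.82 ± 0.46 (SD, n = 13) in the tissue labelled striatum to 15.33 ± 0.22 (SD, n = 20) in CBA hypothalamus, and Pou3f1 from 11.86 ± 0.4 (SD, n = 12) in C57BL/6 cerebellum to 15.69 ± 0.38 (SD, n = 8) in frontal cortex. Lhx2, a selector gene of the cerebral cortex, was 13.63 ± 0.37 in frontal cortex and 11.88 ± 1.6 in the tissue labelled cerebellum. Values across the 2 array designs were normalized separately, so their order is a description.

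Dlx1 and Dlx5, factors of forebrain inhibitory neurons, were highest in forebrain tissue. Dlx1 stood at 11.77 ± 0.25 (SD, n = 18) in BALB, 10.95 ± 0.38 (SD, n = 10) in C57BL/6 and 10.58 ± 0.18 (SD, n = 20) in CBA hypothalamus and at 9.65 ± 0.48 (SD, n = 8) in frontal cortex. It was 3.22 ± 1.08 (SD, n = 12) in C57BL/6 cerebellum, where 4 of 12 arrays were well above background. In the BALB tissue labelled cerebellum Dlx1 ran from 1.73 to 9.84 with a median of 8, and in that labelled striatum from 1.74 to 8.48 with a median of 3.32. Dlx5 was 8.55 ± 0.25, 8.47 ± 0.47 and 8.83 ± 0.24 in BALB, C57BL/6 and CBA hypothalamus, 9.15 ± 1 in frontal cortex and 4.76 ± 0.93 in C57BL/6 cerebellum. Its medians were 6.38 and 4.3 under the BALB labels cerebellum and striatum. Lhx8, needed for forebrain cholinergic neurons, varied widely within a tissue: 10.41 ± 1.05 in BALB, 8.68 ± 1.39 in C57BL/6 and 8.5 ± 1.73 in CBA hypothalamus, 8.11 ± 3.39 in frontal cortex and 2.38 ± 1.17 in C57BL/6 cerebellum, with medians of 6.24 and 1.63 under the labels cerebellum and striatum.

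Six3, an anterior forebrain factor, was 7.93 ± 0.3, 7.72 ± 0.32 and 8.03 ± 0.26 in BALB, C57BL/6 and CBA hypothalamus, 5.8 ± 1.96 in frontal cortex and 4.79 ± 0.51 in C57BL/6 cerebellum, with medians of 5.56 and 3.66 under the BALB labels. The ranges of the 3 hypothalami overlapped.

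Lhx1 and Lhx5, factors of Purkinje cells and of hypothalamic neurons, split between the tissues. Lhx1 was 12.13 ± 0.4 in C57BL/6 cerebellum, 10.46 ± 0.36, 9.87 ± 0.35 and 10.82 ± 0.23 in BALB, C57BL/6 and CBA hypothalamus and 5.4 ± 1.14 in frontal cortex, with medians of 9.48 and 12.47 under the BALB labels. Lhx5 was 12.13 ± 0.26, 11.87 ± 0.23 and 12.6 ± 0.14 in the 3 hypothalami, 11.24 ± 0.21 in C57BL/6 cerebellum and 5.49 ± 3.14 in frontal cortex, with medians of 10.17 and 11.55. Meis1 was 10.19 ± 0.21 in C57BL/6 cerebellum and 7.65 ± 0.25, 7.53 ± 0.37 and 6.04 ± 0.36 in the hypothalami, with 7.02 ± 1.03 in frontal cortex and medians of 7.9 and 10.18 under the BALB labels. Lhx2 was 11.5 ± 0.43, 10.95 ± 0.34 and 10.85 ± 0.19 in the hypothalami and 9.15 ± 0.43 in C57BL/6 cerebellum, with medians of 12.58 and 9.99.

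The other core genes moved little between tissues. Nkx2-2, a ventral patterning factor that adult oligodendrocyte precursors keep, had means from 8.63 ± 0.78 in frontal cortex to 10.26 ± 0.21 in CBA hypothalamus. Pou4f1, a factor of habenular and sensory neurons, ranged from 7.8 ± 0.22 in BALB hypothalamus to 8.92 ± 0.63 in C57BL/6 hypothalamus.

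Hox genes were read next, by their place in the clusters. All arrays of the C57BL/6 cerebellum were well above background for 18 of the 38 Hox genes: 13 of 15 in paralog groups 1 to 5, 3 of 8 in groups 6 to 8 and 2 of 15 in groups 9 to 13. In the C57BL/6 hypothalamus the count was 10 (5, 3 and 2). The cerebellar genes included Hoxa2, Hoxa3, Hoxa4, Hoxa5, Hoxa6, Hoxa7, Hoxa9, Hoxa13, Hoxb2, Hoxb3, Hoxb4, Hoxb5, Hoxb6, Hoxc4, Hoxc5, Hoxd1 and Hoxd4, with mean levels from 5.18 (Hoxc5) to 11.25 (Hoxb5). The hypothalamic ones included Hoxa3, Hoxa4, Hoxa6, Hoxa7, Hoxa9, Hoxb3, Hoxb6, Hoxc4 and Hoxc10, from 3.93 (Hoxc10) to 8.91 (Hoxb6). BALB and CBA hypothalamus each had Hoxa3, Hoxa9, Hoxb6 and Hoxc4, with Hoxb6 at 9.69 ± 0.17 and 8.72 ± 0.2. Frontal cortex had 7 (Hoxa3, Hoxa6, Hoxa7, Hoxb3, Hoxb6, Hoxb9 and Hoxc4), the tissue labelled cerebellum 6 (Hoxa3, Hoxa6, Hoxa7, Hoxb3, Hoxb6 and Hoxc4) and that labelled striatum 5 (Hoxa3, Hoxa6, Hoxa7, Hoxb6 and Hoxc4). Hoxa3, Hoxb6 and Hoxc4 were thus on every array, the frontal cortex included. Hoxc4 has no other probe to set beside its own. Each probe of a gene was not alike in this: in young C57BL/6 mice the brightest Hoxa3 probe was lower in cerebellum by -1.17 and its other probe higher by 4.37, and for Hoxb6 the differences were 0.51 and 5.96.

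The cerebellum and hypothalamus of young C57BL/6 mice were then compared, to ask which regional identity genes separate a hindbrain from a forebrain structure in the adult. Of 69 genes tested, 51 differed at an adjusted p under 0.05 (limma, adjusted over all genes), 28 higher in cerebellum and 23 lower. Most genes of any kind differed here: 66.4% of all 23492 genes tested were called, close to the 73.9% of this set. Their median absolute difference was 1.49 on the log2 scale against 0.66 over all genes tested, and the median over all genes was -0.11. The other 15 genes had too few arrays above background to be tested, and 4 of them were above it on no array of the fit. Of 26 Hox genes tested 17 were higher and 4 lower; among paralog groups 1 to 5 it was 11 of 14 higher and 2 lower, in groups 6 to 8 3 of 5 higher, and in groups 9 to 13 3 of 7 higher and 2 lower. For 6 of the 28 genes called higher, all 6 of them Hox genes, no hypothalamic array was well above background, and for 5 of the 23 called lower no cerebellar array was. Such genes entered the test through the brighter group alone, which fixed their direction. The lower side held 3 of 4 Dlx genes, 4 of 7 Lhx genes, Six3, Six5 and Six6, and 3 of 10 Nkx genes, with 1 Lhx gene, Six4 and 3 Nkx genes higher. Of 6 Irx genes 4 were higher and 1 lower, Meis1 was higher, and 1 Pou3f gene was higher and 1 lower of 4, with 1 of 2 Pou4f genes lower.

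Hoxb5, a gene of the posterior hindbrain, was 12.37, 9.87, 12.05 and 11.6 on the 4 cerebellar arrays and 2.57, 2.66, 2.02, 1.76 and 1.85 on the 5 hypothalamic ones, where none was well above background. The groups lay far apart. For this and other genes well above background in only 1 of 2 groups compared, no p-value is given, since the filter fixed the direction. Where a gene was not well above background in 1 group, that group has only an upper bound, set per array by the dimmest probe still above background, and against it Hoxb5 was at least 328-fold higher. Hoxa5 was 9.89, 7.27, 9.51 and 8.97 in cerebellum and 1.69 to 2.03 in hypothalamus, at least 55.6-fold higher. Hoxb2, a gene of the anterior hindbrain, ran from 8.64 to 9.71 against 2.09 to 2.62 (at least 67.5-fold), Hoxd4 from 7.36 to 9.14 against 1.63 to 2.9 (at least 32.9-fold) and Hoxa2, which has the most anterior domain of the Hox genes, from 6.98 to 8.04 against 1.66 to 3.06 (at least 19.9-fold). None of these groups overlapped, but the genes were named for large differences or for detection on every cerebellar array. The separation is thus a description and no further result.

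On the hypothalamic side Dlx2, the partner of Dlx1 in inhibitory neurons, was 10.79, 10.66, 11.32, 10.65 and 11.07 in hypothalamus and 1.69, 2.15, 2.01 and 2.21 in cerebellum, where no array was well above background. It was at least 207-fold lower in cerebellum. Nkx2-4, a relative of Nkx2-1 that marks the developing hypothalamus, was 10.25, 10.66, 10.95, 10.75 and 11.63 against 1.62, 2.54, 1.63 and 2.77. By this brightest probe it was at least 200-fold lower in cerebellum, but its other probe differed by only -2.15. Dlx1 was 10.95 to 11.32 against 1.91 to 3.22 (at least 243-fold) and Lhx8 7.88 to 11.05 against 1.6 to 1.75 (at least 75.7-fold). Lhx6, which acts in inhibitory neurons born in the ventral forebrain, was 9.48 to 11.46 in hypothalamus and 2.64 to 3.54 in cerebellum, a difference of -7.44 ± 0.42 (SE, limma adjusted p = 2.55e-11). The other probes of Lhx6 and Lhx8 differed by -2.63 and -5.22. Each of these 5 genes separated the groups without overlap. They were named for the size of their difference, so this too is a description and no further result.

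**Figure D2:**
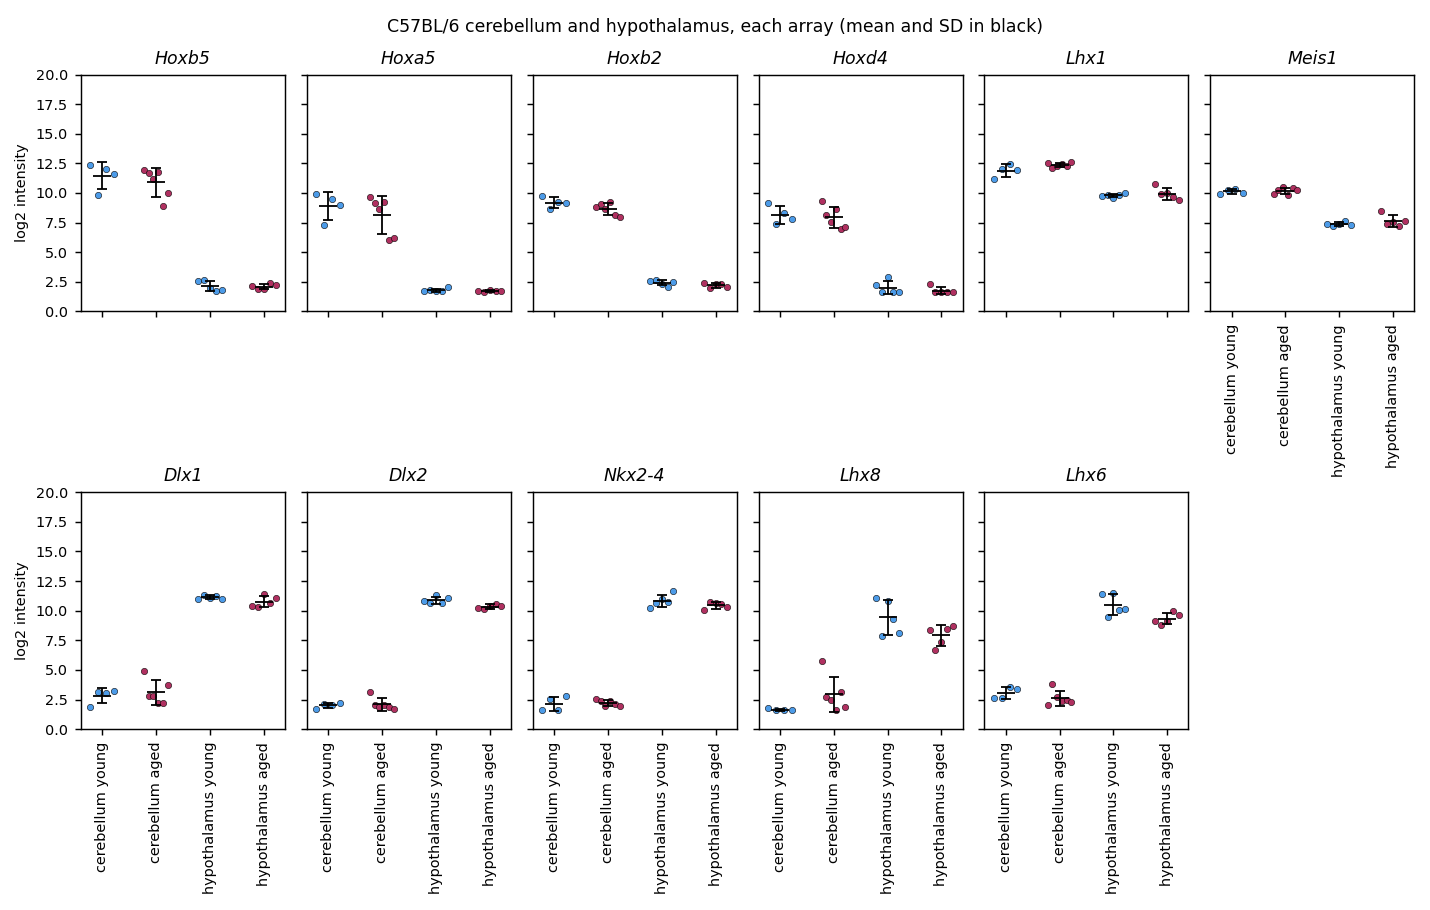
Log2 normalized intensity (vertical axis) of 11 genes on each C57BL/6 array, young and aged cerebellum and hypothalamus (horizontal axis); points are arrays, and black marks the group mean with its SD as error bars. Hoxb5, Hoxa5, Hoxb2, Hoxd4, Lhx1 and Meis1 sit higher in cerebellum, and Dlx1, Dlx2, Nkx2-4, Lhx8 and Lhx6 higher in hypothalamus.

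Genes of smaller difference kept their groups apart too. Lhx1 was 11.16, 11.99, 12.44 and 11.95 in cerebellum and 9.73, 9.85, 9.59, 9.83 and 9.99 in hypothalamus, a difference of 2.08 ± 0.23 (limma adjusted p = 1.93e-07), and Meis1 9.92 to 10.35 against 7.25 to 7.6, a difference of 2.74 ± 0.19 (limma adjusted p = 4.25e-10). Six3 differed by -2.75 ± 0.26, Dlx5 by -3.72 ± 0.42 and Lhx2 by -1.48 ± 0.25. Lhx5 was lower by -0.69 ± 0.13, a small difference beside that of Lhx1. For Pou4f1, at -1.11 ± 0.36 (limma adjusted p = 0.00995), the groups overlapped and another probe of the gene differed by 2.63, so its direction depends on the probe. Opposite signs between probes were also seen for Hoxa3 and Pou3f3. With the same sign, the other probe differed less for Six3 (-0.89), Hoxb2 (3.89) and Meis1 (2.45) and more for Lhx1 (2.35). The sizes given for genes with several probes are thus those of the brightest probe. In bulk tissue, fewer cells of a type and less RNA per cell cannot be told apart.

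In aged C57BL/6 mice 52 of 69 genes tested differed, 30 higher in cerebellum and 22 lower, where 69.4% of all 23668 genes were called. Of these, 7 and 3 had no array well above background in the dimmer group. Hoxb5 was 11.95, 11.67, 11.17, 11.78, 8.9 and 9.97 in cerebellum and 2.13, 1.89, 1.89, 2.36 and 2.24 in hypothalamus, where no array was well above background, at least 252-fold higher. Dlx2 was at least 174-fold and Nkx2-4 at least 187-fold lower in cerebellum, and Dlx1 differed by -7.65 ± 0.45, Lhx6 by -6.72 ± 0.38 and Lhx8 by -4.99 ± 0.65. On the higher side Hoxa5 and Hoxb2 both differed by 6.44, at least 37.3-fold and 52.6-fold, and Hoxd4 by 6.18, at least 32.5-fold. The 10 genes of largest fitted difference, some of them known only by a bound, were the same names at both ages. The cerebellar and hypothalamic arrays of C57BL/6 mice were on different slides and read with different versions of the scanner software, so region cannot be told apart from slide and software; with slides as a random block, 50 genes were called at each age.

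The Hox genes of paralog groups 1 to 5 also varied among the cerebellar arrays themselves. Young 2, aged 5 and aged 6 read 9.87, 8.9 and 9.97 for Hoxb5, while the other 9 arrays lay between 11.17 and 12.37. For Hoxa5 the same 3 arrays read 7.27, 6.06 and 6.18 and the others 8.61 to 9.89. Hoxd4 was lowest on these 3 as well, at 7.36, 6.98 and 7.15, whereas Hoxa2 spanned only 6.65 to 8.04 over all 12. Hoxb7 ran from 2.29 to 9.74, and on the 3 arrays it was 3.11, 3.38 and 2.29. The 3 arrays were on different slides. They were chosen after their values were seen and are described one by one, with no test. Summed cerebellar markers on young 1, the array of highest Hoxb5, were 16.93, the lowest of the 12, with the other 11 at 18.27 or above; the part of this in its Hoxb5 level was not tested. The labels and methods do not say whether adjoining brainstem was taken with the cerebellum, and no brainstem marker list was measured, so the Hox levels given here are those of the dissected tissue and not of cerebellar cells as such.

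In the BALB tissues, Hoxb5 was well above background on 7 of the 15 arrays labelled cerebellum and 4 of the 13 labelled striatum. It was 7.77, 3.32, 2.69, 9.21 and 3.96 on the young arrays labelled cerebellum, 2.71, 8.09, 3.39, 2.06, 9.12 and 1.92 on the middle-aged and 10.02, 4.88, 3.39 and 10.86 on the aged ones. Under the label striatum it was 4.53, 3.23 and 8.97, then 7.07, 3.73, 10.01, 3.92 and 3.82, then 3.94, 5.1, 3.61, 4.08 and 3.3. High and low arrays stood side by side in every group except the aged striatum. Array aged 4 of the label cerebellum was also high for Hoxb2 (9.17), Hoxa5 (8.14) and Hoxd4 (7.29), and its neighbour aged 3 read 4.68, 1.82 and 1.62, although their summed cerebellar markers both lay between 18.44 and 19.29.

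The 2 BALB labels were compared at each age. Among young mice 17 of 56 genes tested differed, 12 higher under the label cerebellum and 5 lower, with 14.2% of all 21741 genes called. Among middle-aged mice 19 of 56 differed, 12 higher and 7 lower, with 22.4% of all 22101 genes called. Of the 12 higher at each age, 4 in young and 2 in middle-aged mice had no array well above background under the label striatum. No gene differed in aged mice, of 48 of the set and of all 21516 tested (0% called by limma; 3 and 1395 at an unadjusted p under 0.05; 0 and 2 at a B statistic over 0). The calls included Dlx (3 of 4 higher, 1 lower at both ages), Lhx (3 higher and 2 lower, of 6 tested in young and 7 in middle-aged) and Pou3f (2 higher, of 3 and 4). Meis1 was lower at both ages, and of the Hox genes only Hoxc4 was called (lower, 1 of 15 in young and 1 of 13 in middle-aged).

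Dlx1 was 8, 7.97, 9.84, 7.26 and 8.63 on the young arrays labelled cerebellum and 3.33, 2.96 and 1.74 on those labelled striatum. The groups did not overlap and the latter were not well above background, so Dlx1 was at least 18.6-fold higher under the label cerebellum. In middle-aged mice it was 9.08, 9.27, 8.57, 9.43, 7.79 and 9.67 against 3.32, 4.17, 2.61, 2.72 and 4.25 (difference 5.56 ± 0.84, limma adjusted p = 9.55e-05). In aged mice the label cerebellum read 1.73, 3.39, 6.74 and 1.86 and the label striatum 4.31, 3.07, 8.48, 4.78 and 2.86, with no call. Dlx2 followed, at least 12.5-fold higher in young and 22.7-fold in middle-aged mice. Lhx6 differed by 4.5 ± 0.95 and 5.08 ± 0.79, Lhx8 by 4.05 ± 1.31 and 4.89 ± 1.09 with overlapping groups, and Lhx2 by 3.45 ± 0.88 and 2.92 ± 0.73.

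Lhx1 moved the other way. It was 9.61, 9.45, 9.09, 10.2 and 9.1 under the young label cerebellum and 12.47, 12.54 and 11.49 under the young label striatum, without overlap (difference -2.68 ± 0.54, limma adjusted p = 0.00235). The middle-aged arrays read 9.33, 9.48, 9.41, 8.99, 10.56 and 8.99 against 12.02, 12.25, 12.83, 12.92 and 12.57 (-3.06 ± 0.45, limma adjusted p = 7.73e-05). Meis1 differed by -2.43 ± 0.46 and -2.08 ± 0.38 and Dlx4 by -2.59 ± 0.43 and -2.06 ± 0.36. Dlx5 and Six3 were higher under the label cerebellum in middle-aged mice, by 2.26 ± 0.6 and 2.12 ± 0.53. Within a slide that held both labels the young difference was 5.04 for Dlx1 and -2.93 for Lhx1 (1 slide), and the middle-aged one 5.22 to 6.47 and -3.5 to -2 (3 slides). With the slide as a fixed block, 4 genes were called in young and 14 in middle-aged mice. Leaving out striatum young 1 or young 2 brought the young count to 7 or 9, and without young 1 the genes no longer called included Lhx2, Lhx5, Lhx8 and Six3. Without the 4 BALB arrays set apart by Gabra6, 18, 19 and 0 genes were called at the 3 ages.

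**Figure D3:**
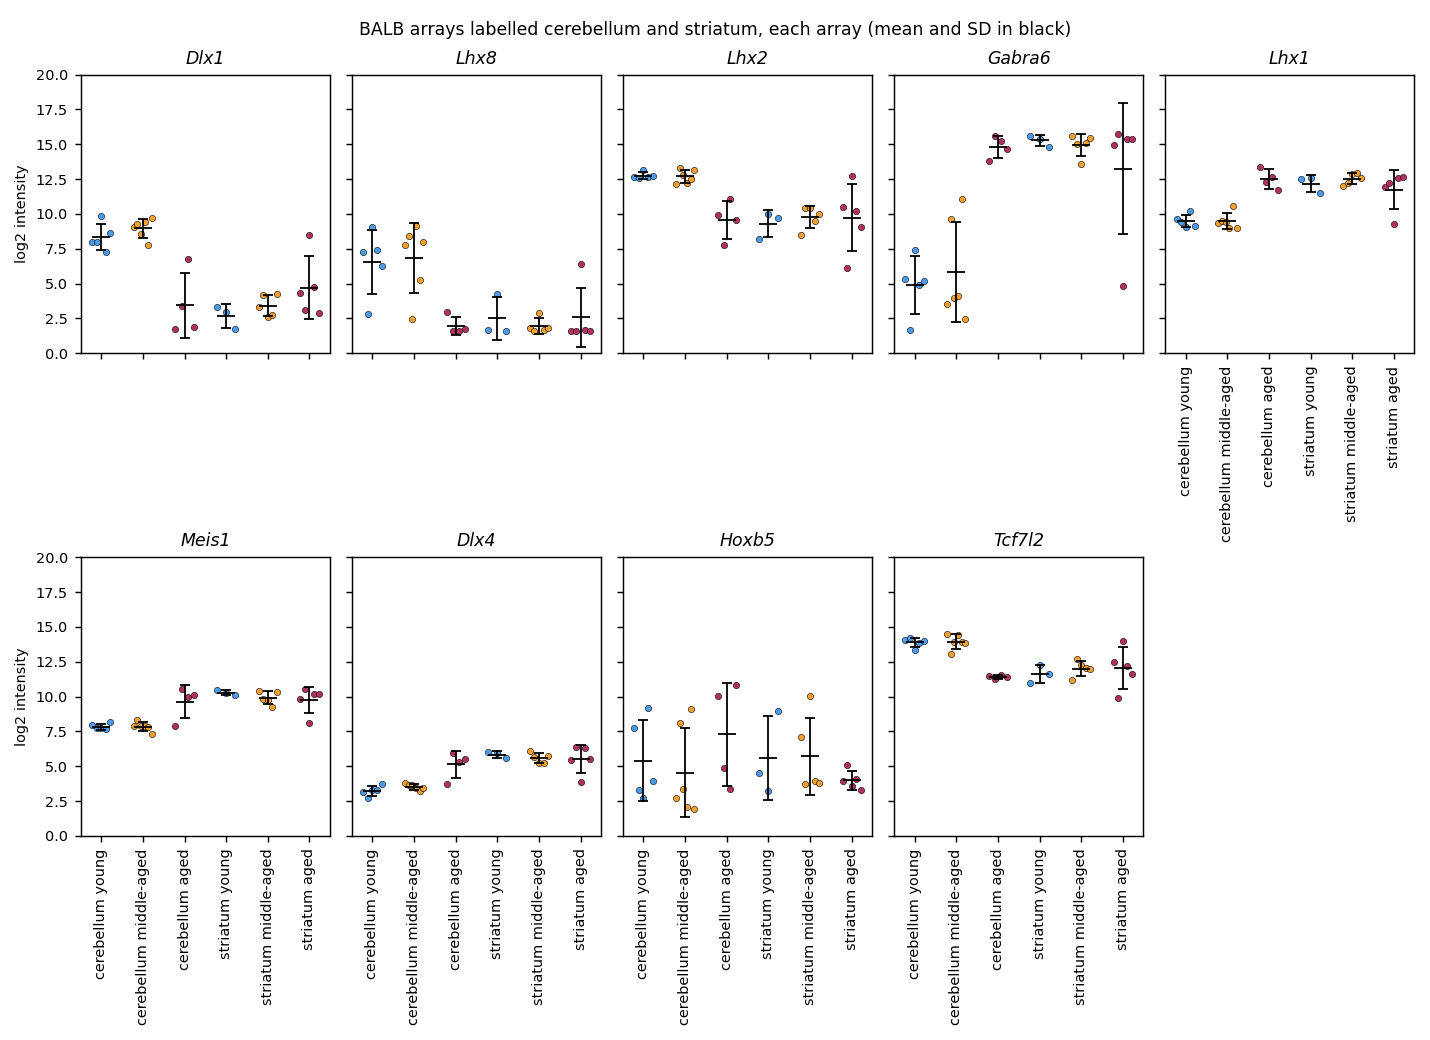
Log2 normalized intensity (vertical axis) of 7 homeobox genes and the region markers Gabra6 and Tcf7l2 on each BALB array labelled cerebellum or striatum (horizontal axis, by label and age); points are arrays, and black marks the group mean with its SD as error bars. Dlx1 and Lhx2 are high on the young and middle-aged arrays labelled cerebellum, where Lhx1, Meis1 and Gabra6 are low.

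Of the 7 cohorts compared by age, only the tissue labelled cerebellum had calls in this set. Between aged and young mice 19 of 57 genes tested differed, 5 higher with age and 14 lower, with 15.8% of all 21660 genes called. The same libraries changed in their region markers, from cerebellar sums of 15.28 to 15.52 to sums of 18.44 to 19.29, and from thalamic sums of 16.16 to 16.76 to sums of 14.45 to 14.83. Hypothalamic sums went from 14.54 to 15.45 in young to 10.85 to 12.61 in aged libraries. The part of these changes in the age difference was not tested. Dlx1 differed by -4.91 ± 0.85 (limma adjusted p = 0.00116) and Dlx2 by -4.77 ± 0.66. Lhx8 was at least 6.03-fold lower, Lhx6 differed by -3.86 ± 0.69, Lhx2 by -3.16 ± 0.48 and Dlx5 by -2.28 ± 0.57. Nkx2-4 was at least 1.53-fold lower.

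Lhx1 went the other way, to 13.38, 12.26, 12.67 and 11.69 in aged libraries, above all young ones (3.01 ± 0.37, limma adjusted p = 8.72e-05). Meis1 was 7.97, 7.72, 7.75, 7.64 and 8.17 in young and 7.87, 10.56, 9.97 and 10.13 in aged libraries, so aged 1 stayed within the young range. Young and aged libraries shared 1 slide, where the difference was -5.88 for Dlx1 and 3.55 for Lhx1. Under a fixed slide block 7 genes were called. Without young 3 and the middle-aged arrays that stand apart, 13 were called. Leaving out aged 2 or aged 3 ended the call of Lhx8.

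The aged difference between the labels minus the young one was tested after the values were seen, over all 22932 genes. It was called for 9 of 62 genes tested (4 positive, 5 negative; 6.69% of all genes called). Among these were Dlx1 (-6.93 ± 1.38), Dlx2 (-6.18 ± 1.21), Lhx6 (-4.7 ± 1.3), Lhx1 (3.44 ± 0.74), Meis1 (2.29 ± 0.63), Dlx4 (2.23 ± 0.59) and Lhx5 (1.71 ± 0.45), with limma adjusted p from 0.00522 to 0.0312. With the slide as a fixed block none of the 9 was called, and without striatum young 1 or young 2 the count was 4.

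In the tissue labelled striatum none of 46 genes differed between aged and young mice (0% of all 21478 genes called by limma; 1 and 128 at an unadjusted p under 0.05; none at a B statistic over 0). Array aged 3 stood apart there in several genes at once, with Lhx1 at 9.27 against 11.92 to 12.65 on the other 4, Meis1 at 8.14 against 9.86 to 10.51 and Lhx8 at 6.4 against 1.6 to 1.63. Its summed cerebellar markers were 15.38, and those of the thalamus 16.65, the highest of its group.

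Frontal cortex was set against hypothalamus on the second array design, young BALB females against young CBA males. Of 52 genes tested 35 differed, 4 higher in frontal cortex and 31 lower, with 53% of all 20744 genes called. For 7 of the 31 no frontal cortex array was well above background. The median difference was -1.07 over the set and -0.09 over all genes tested, and with the 75th percentile scaling the latter was -0.15. Lower genes held 6 of 6 Irx, 6 of 11 Nkx, 4 of 7 Lhx, 6 of 11 Hox and 2 of 3 Dlx genes, Six3 and Six6 and the 1 Pou4f gene tested. Lhx2, Hoxc4 and Pou3f1 were among the higher genes. Strain, sex and slide differ along with the region, so they cannot be told apart.

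Nkx2-4 was 2.38, 2.36, 2.02 and 2.07 on the young frontal cortex arrays and 10.3 to 11.29 (median 10.86) on the 7 of the hypothalamus, at least 153-fold lower by its brightest probe. Pitx1, best known from the pituitary and the hindlimb, was 2.35, 2.46, 3.2 and 2.12 against 10.29 to 11.38, at least 133-fold lower. No array of the frontal cortex was well above background for either gene. Lhx1 differed by -5.02 ± 0.36, from 4.48 to 6.7 against 10.52 to 11.19. Iroquois genes pattern the neural tube, and among them Irx5 was at least 7.31-fold lower, Irx2 differed by -4.41 ± 0.53, Irx6 by -3.86 ± 0.45 and Irx1 by -3.19 ± 0.43. Hoxa9 differed by -4.3 ± 0.35.

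Lhx5 was 12.58 to 12.79 in hypothalamus but uneven in frontal cortex, at 10.27, 7.61, 3.27 and 4.91 on young replicates 1, 2, 4 and 8 (difference -6.19 ± 0.96, limma adjusted p = 6.72e-06). Replicate 1, the highest, also had the highest sum of hypothalamic markers, 14.9 against 10.74 to 11.69 on the other 3. At 15 to 16 months Lhx5 was 2.6, 9.35, 2.54 and 3.38 on replicates 2, 5, 6 and 8, and replicate 5 had the highest hypothalamic sum there, 12.47 against 10.21 to 10.67. The part of other tissue in these levels was not tested. Lhx8 and the striatal markers varied on these arrays too: Lhx8 was 12.07, 4.12, 2.47 and 9.61 on the young arrays, with striatal sums of 17.61, 14.84, 14.18 and 18.1, and 9.65, 11.5, 7.13 and 8.33 on the others, with sums of 17.96, 17.79, 16.67 and 17.73. Six3 was lowest, at 1.94, on the young array of lowest striatal sum.

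Lhx2 was 13.1, 13.66, 14.2 and 13.51 in young frontal cortex and 10.54 to 11.08 in hypothalamus, the largest of the 4 positive differences (2.84 ± 0.17, limma adjusted p = 1.97e-13). Pou3f1 was 15.45, 15.24, 16.03 and 15.69 against 13.02 to 13.74 (2.32 ± 0.19, limma adjusted p = 1.59e-10). Hoxc4 was higher as well, by 2.33 ± 0.31, at 9.75 to 11.27 against 7.26 to 8.29. All 3 separated the groups without overlap. For Hoxc4 no other probe could be set beside this one. In C57BL/6 mice its mean was 6.55 in cerebellum and 8.33 in hypothalamus, opposite to Hoxb5, Hoxa5 and Hoxd4. Whether the probe reads Hoxc4 RNA was not tested.

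**Figure D4:**
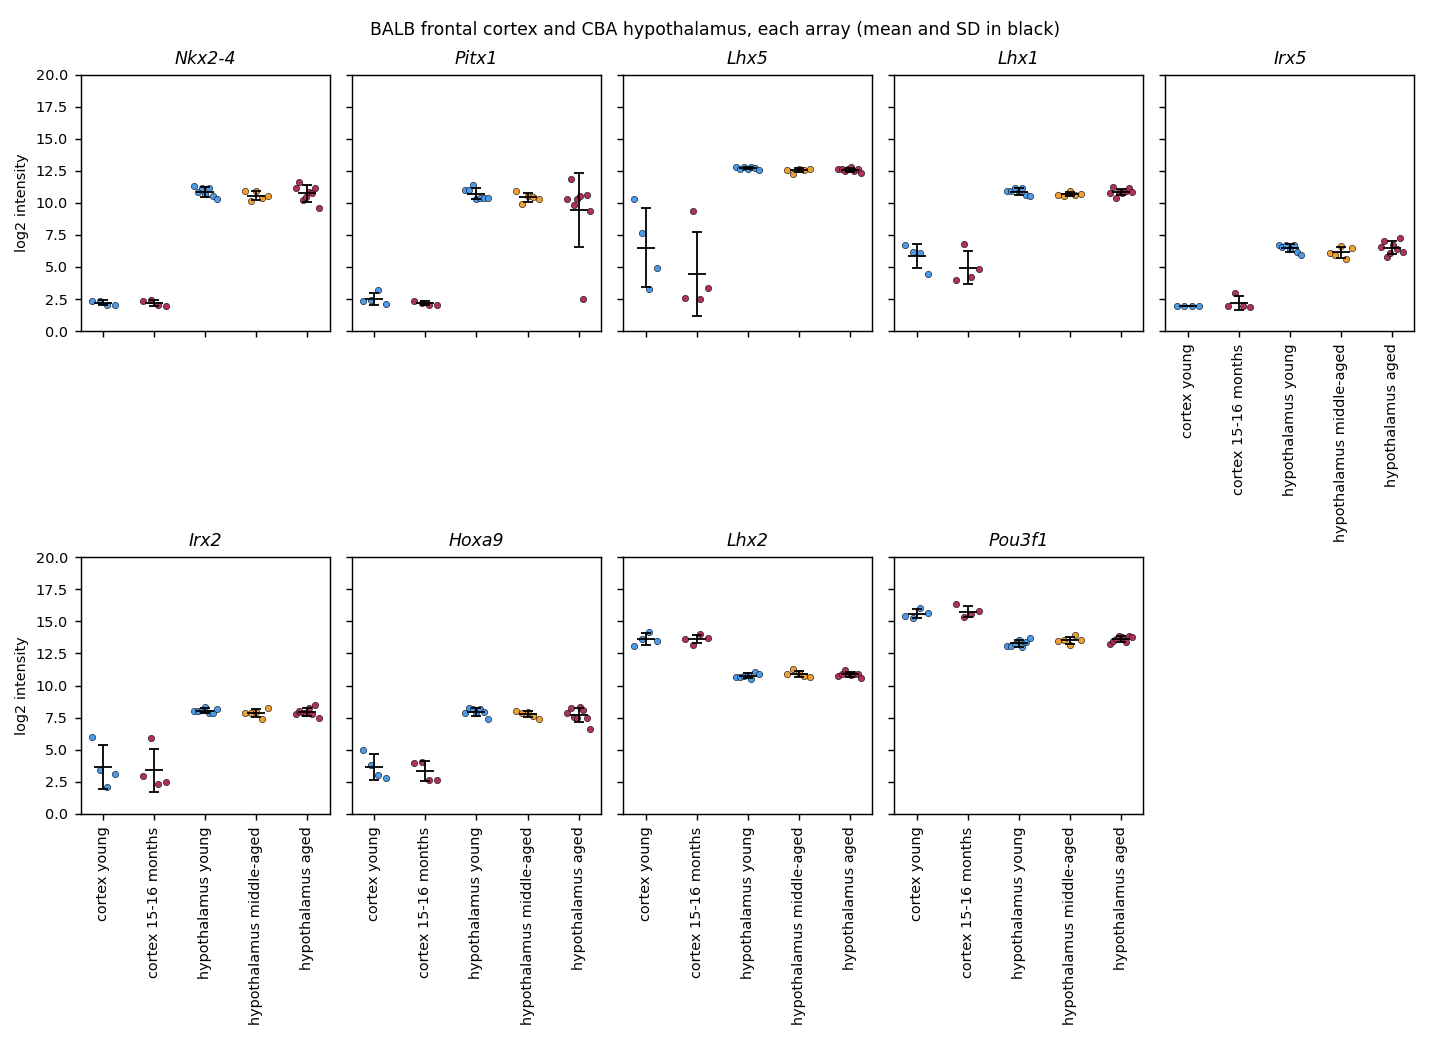
Log2 normalized intensity (vertical axis) of 9 genes on each array of the second design, BALB frontal cortex and CBA hypothalamus by age (horizontal axis); points are arrays, and black marks the group mean with its SD as error bars. Nkx2-4 and Pitx1 lie at 3.2 or lower on the young frontal cortex arrays, Lhx5 is scattered over the frontal cortex arrays of both ages from 2.54 to 10.27, and Lhx2 and Pou3f1 are higher than in hypothalamus.

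Between the young hypothalami of BALB and C57BL/6 mice 17 of 59 genes differed, 11 higher in BALB and 6 lower, while 49.7% of all 22468 genes were called. The share in this set was 28.8%. Its median absolute difference was 0.45 on the log2 scale, against 0.39 over all genes tested. Hoxb9 differed by -1.75 ± 0.65 with overlapping groups, and 1 of the 7 BALB arrays was well above background for it. Pou3f2, a factor of hypothalamic neuroendocrine neurons, was 8.38 to 9.98 against 7.01 to 7.83 and differed by 1.24 ± 0.25 (limma adjusted p = 0.000189) without overlap. Hoxc4 differed by -1 ± 0.22, Hoxb6 by 0.83 ± 0.14 and Nkx2-6 by 1.11 ± 0.45, all without overlap. Lhx8 (1.51 ± 0.61), Pou4f1 (-1.14 ± 0.25), Pou3f4 (1 ± 0.4) and Nkx2-4 (-0.73 ± 0.19) were called with overlapping groups. The strains were on different slides and read with different software versions, so strain and scan cannot be told apart. Without C57BL/6 young 4 the count was 11. Without BALB young 1, where 89.265% of probes were well above background, Pou3f4 (0.64) and Nkx2-6 (1) were no longer called.

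Age was compared within each remaining cohort, and no gene of the set was called by limma. The set counted 0 of 65 in C57BL/6 cerebellum (0.0989% of all 23251 genes called), 0 of 41 in BALB hypothalamus (0.858% of 18422), 0 of 64 in C57BL/6 hypothalamus (0.00429% of 23302), 0 of 48 in CBA hypothalamus (0.176% of 19268) and 0 of 45 in frontal cortex at 15 to 16 months against young (0% of 21416). At an unadjusted p under 0.05 there were 3, 4, 10, 4 and 4 genes of the set, and 1685, 1794, 1184, 1251 and 1125 of all genes. No gene of the set had a B statistic over 0. Neither the region by age interaction of C57BL/6 mice (0 of 77, 0% of 24791 genes; 5 and 1108 unadjusted) nor the strain by age interaction of the hypothalamus (0 of 64, 0% of 23563; 2 and 1222 unadjusted) gave a call. These tests do not show that levels stayed the same.

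The C57BL/6 hypothalamus had the most genes at an unadjusted p, 15.6% of the set against 5.08% of all genes tested. These 10 were chosen by their p and none passed the adjustment, with limma adjusted p of 0.543 to 0.963 for those named here. Aged against young arrays, Dlx2 was 10.14 to 10.57 against 10.65 to 11.32 (-0.55 ± 0.15), Lhx6 8.78 to 9.99 against 9.48 to 11.46 (-1.18 ± 0.39), Lhx8 6.68 to 8.75 against 7.88 to 11.05 (-1.52 ± 0.66) and Lhx5 11.54 to 11.88 against 11.82 to 12.34 (-0.28 ± 0.12). The differences were -0.43, -0.44 and -0.45 for Pou3f4, Pou4f3 and Hoxc13, and 0.52 and 0.47 for Six4 and Irx2. Of the genes named here, the Dlx2 groups alone did not overlap. Summed thalamic markers were 14.61 to 15.33 in the young and 15.39 to 16.15 in the aged libraries of this cohort, without overlap, and the part of this in the values was not tested.

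The extreme Pitx1 levels of the hypothalamus fell on arrays with extreme levels of pituitary markers. In BALB mice it was highest on aged 2, at 12.72, where the 6 pituitary markers summed to 19.33, and lowest on young 5, at 2.22, where the sum was 9.35. The other 16 BALB arrays read 7.1 to 9.55. In CBA mice it was 2.49 on aged 6, whose pituitary sum of 9.61 was the lowest of the aged arrays, and 9.33 to 11.89 on the other 7 aged arrays with sums of 12.58 to 14.93. The arrays were singled out after their values were seen, and the part of pituitary tissue was not tested.

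Other homeobox genes, a list of 80 names from further families, were counted beside the set. In young C57BL/6 mice 20 were higher and 24 lower in cerebellum of 59 tested (74.6%, against 66.4% of all genes), among them Isl1 (-6.08 ± 0.17), a factor of hypothalamic neurons, and En2 (5.55 ± 0.66), a gene of the midbrain and cerebellum. In aged C57BL/6 mice 19 were higher and 26 lower of 59 (76.3% against 69.4%). Under the BALB labels 9 were higher and 7 lower of 49 in young (32.7% against 14.2%), 11 and 10 of 53 in middle-aged (39.6% against 22.4%) and none of 45 in aged mice. Gbx2, a thalamic gene, was higher by 5.57 ± 1.06 and En2 lower by -4.2 ± 0.65 under the young label cerebellum. Both were also in the thalamic and cerebellar marker lists summed above, so they are not a separate look at these labels. Frontal cortex had 9 higher and 26 lower of 49 (71.4% against 53%), with the hypothalamic genes Hmx3 and Hmx2 lower by -6.58 ± 0.4 and -5.93 ± 0.26 and the cortical gene Emx2 higher by 3.11 ± 0.22. BALB against C57BL/6 hypothalamus had 14 higher and 10 lower of 53 (45.3% against 49.7%). With age 8 rose and 9 fell of 49 in the tissue labelled cerebellum (34.7% against 15.8%), and none was called in the other 6 cohorts. These shares are given beside those of all genes as a description.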

How the data were processed

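Single-colour Agilent whole mouse genome arrays measured total RNA labelled with Cy3 in 104 mouse brain samples. The deposited files are the authors' Agilent Feature Extraction output (version 9.1 in the submitters' processing notes; 9.1.3.1, 9.5.1.1, 10.1.1.1 and 10.5.1.1 per the file headers), and their spot intensity (gProcessedSignal, background-subtracted) was used. For 8 of the 16 frontal cortex samples only the authors' deposited series table of log2 values was used, in an alternative. Scale and centring of that table are not given in the sources used here.

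Control spots and outlier spots were left out, spots of a probe were averaged, and log2 intensities were quantile normalized over the 68 arrays of the first design and the 28 of the second. Gene names came from the scanner files, matched by probe name. Each gene was represented by its brightest probe and tested when the number of arrays with that probe well above background reached the size of the smaller group. limma 3.58.1 (lmFit and eBayes, R 4.3.3, with the data.table package in version 1.17.8) was fitted to all genes and p-values were adjusted by Benjamini-Hochberg over all genes tested, with calls at an adjusted p under 0.05 and, after the study's methods, counts at a B statistic over 0. The script was tested on simulated data with 200 changed genes.

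Named genes were the core genes, the 10 largest calls per comparison of regions, labels or strains, up to 10 calls per age comparison or interaction, the 3 brightest probes per cohort (no ranking of genes), and Hox genes above background on all arrays of a cohort. Dlx6, Nkx2-1 and Meis2 of the core list have no probe of that name. Results for a few further genes are not reported here. The members, lists and tests were chosen with earlier results of these data known. Alternatives were normexp background correction with an offset of 50 (on median rather than mean signals), scaling to the 75th percentile, other filters, the mean of all probes, the deposited table, slide and replicate blocks, and leaving out each array. The number of arrays limits the precision.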

Additional observations from a re-analysis of the deposited data

Results flagged for a closer look

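Among the core genes, the highest or lowest array stood apart from its group (a gap beyond Dixon's 95% limit) in 20 of 187 combinations of a gene and a group of 4 to 10 arrays; chance gives about 1 in 20. Labelled striatum aged 3 accounted for 4 of them, with Lhx1 at 9.27 (nearest other array 11.92), Lhx5 at 10.11 (11.44), Lhx8 at 6.4 (1.63) and Meis1 at 8.14 (9.86). BALB hypothalamus young 1 accounted for 3, with Six3 at 7.24 (7.77), Lhx8 at 8.86 (10.69) and Pou4f1 at 8.4 (7.9). On this array 89.265% of probes were well above background, against 59.812% to 70.525% on the others of its cohort. The part of this in its flags was not tested. In BALB hypothalamus middle-aged 4 Dlx1 was 11.2 (11.77). Under the label cerebellum Lhx2 was 13.18 on young 3 (12.69), Lhx1 10.56 on middle-aged 5 (9.48) and Lhx8 2.95 on aged 1 (1.71). Under the label striatum, middle-aged 3 read 2.91 for Lhx8 (1.8) and 9.96 for Nkx2-2 (9.52). In C57BL/6 cerebellum Six3 was 4.78 on young 2 (5.18), Dlx1 1.91 and Lhx8 1.75 on young 1 (3.09 and 1.62), and Lhx8 5.74 on aged 1 (3.14). The values 1.91 and 1.75 lie below 1.94, the lowest background bound of this design. Flags on such values say little about levels, and the rate of 1 in 20 may not hold for them. On the second design Lhx5 was 9.35 on frontal cortex replicate 5 at 15 to 16 months (3.38) and 12.27 on CBA hypothalamus middle-aged 2 (12.54), and Nkx2-2 was 10.05 on CBA hypothalamus young 6 (10.21).

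The difference between the BALB labels cerebellum and striatum changed between young and aged mice, by a test of the interaction added after the values were seen, for Dlx1 (-6.93, limma adjusted p = 0.00552), Dlx2 (-6.18, 0.00522), Lhx6 (-4.7, 0.0312), Lhx1 (3.44, 0.00764), Meis1 (2.29, 0.0304), Dlx4 (2.23, 0.0254) and Lhx5 (1.71, 0.0238). The summed cerebellar markers of the same libraries were 15.28 to 15.52 in young and 18.44 to 19.29 in aged mice under the label cerebellum. Summed hypothalamic markers there were 14.54 to 15.45 in young and 10.85 to 12.61 in aged mice. The part of these markers in the interaction was not tested.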

How the results depend on the processing

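The counts of homeobox genes called in C57BL/6 cerebellum against hypothalamus ran from 37 to 56 in young and 37 to 57 in aged mice over 9 alternatives (48 to 52 and 50 to 54 with 1 array left out), and in frontal cortex against hypothalamus from 26 to 39 (33 to 37). Scoring by a B statistic over 0 gave 8 for the young and 12 for the middle-aged BALB labels, 10 for the labelled cerebellum with age, 4 for the label by age interaction and 7 for BALB against C57BL/6 hypothalamus. A fixed slide block gave 4 for the young labels, 7 for the labelled cerebellum with age and 0 for the label by age interaction. With 1 array left out the counts were 7 to 17 (young labels), 16 to 18 (middle-aged labels), 13 to 22 (labelled cerebellum with age), 4 to 12 (label by age) and 11 to 19 (BALB against C57BL/6). The age comparisons of the other 6 cohorts, the aged labels and the region or strain by age interactions gave 0 calls in the set under every alternative run. The cause of these changes was not tested.

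Replicate numbers are shared between groups, and the main fits did not pair arrays by them. In no comparison with 3 or more shared numbers did all pairs correlate above 0.1 (range -0.45 to 0.6), and in frontal cortex only 2 numbers are shared (0.25 and 0.82). Such a rule cannot exclude that tissues with the same number came from the same mouse. With the replicate block the counts were 50 and 51 in young and aged C57BL/6 mice, 35 in frontal cortex, 16 in BALB against C57BL/6, 16 and 17 for the young and middle-aged labels, 13 for the labelled cerebellum with age and 11 for the interaction, and 0 elsewhere.

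Of the named genes, 2021 alternatives kept direction and call, 193 lost the call and 1 reversed, Pou4f1 in young C57BL/6 mice, at 0.76 with the mean of all probes. Each of 7 arrays, left out alone, ended the call of Lhx8 and each of 6 that of Six3 (young labels), as did each of 4 for Lhx6 and for Meis1 (interaction) and each of 5 for Pou4f1 (frontal cortex). In BALB against C57BL/6 hypothalamus, each of 6 to 8 arrays ended the calls of Lhx8, Lhx1, Nkx2-6, Hoxb9 and Pou3f4. Counts over all genes moved widely for the young labels (248 to 3599), the label by age interaction (1 to 2625) and the labelled cerebellum with age (1486 to 4768). Probes near background, with bounds of 1.94 to 6.17 and 2.56 to 5.32 log2 on the 2 designs, limit what low genes can show.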
